A study of Mus musculus with 12 samples.

Results

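Reference genes are transcripts that laboratories take as level across conditions, and 5 of them were followed here in LPS-activated and AdipoAI-treated macrophages: Actb, Gapdh, Ppia, Hprt and Hsp90ab1. They come from a panel of 15 genes whose probes carry a RefSeq accession in the files, on arrays with 60915 gene probes. The 5 were picked with earlier results of these data known. Each panel probe was spotted 20 times on every array. All 5 were well above background on all 12 arrays and were among the 33692 probes tested. A qRT-PCR value is a ratio to such a gene. The study's methods name GAPDH or beta-actin for that purpose, and its primer list gives a control pair for GAPDH alone. The comparison asks how far each gene itself moved between the 4 groups.

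The cells were RAW264.7, an established mouse macrophage line, and total RNA was hybridised to 1-colour arrays, 3 for each of 4 groups. The DMSO cells had the solvent for 24 h, and the AdipoAI cells had AdipoAI, a small molecule agonist of adiponectin receptors, for 24 h. The LPS cells had 100 ng/ml lipopolysaccharide, a bacterial cell wall component that activates macrophages through the receptor TLR4, for 6 h. In the AdipoAI+LPS group, 24 h of AdipoAI came first, followed by 6 h of LPS at that dose. Whether the LPS cells had solvent beforehand is not stated, so handling and LPS cannot be told apart in comparisons with that group. Nothing used here says that the 3 arrays of a group came from separate cultures, and p-values then measure only the spread between arrays, which may be technical.

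The number of probes detected above background ranged from 29298 to 32969 over the arrays, and no spot of the 5 genes was saturated. The arrays were scanned in 2 sessions: all DMSO and LPS arrays went through the first together with AdipoAI replicates 1 and 2, whereas AdipoAI replicate 3 was scanned in the second with all 3 AdipoAI+LPS arrays. The other probes are named almost entirely by identifiers of the array maker, so macrophage and LPS marker genes were not looked up and the labels were not checked against them. An array compares transcripts within a fixed amount of RNA, so a change in RNA per cell and a change in a gene's share of the RNA cannot be told apart.

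Reference genes are usually taken from different cell functions, and here they cover the cytoskeleton, glycolysis, purine salvage and, with Ppia and Hsp90ab1, protein folding. Actin filaments drive the shape, movement and phagocytosis of macrophages, and glycolysis is a pathway that macrophages are known to use more after LPS. Reference genes from those pathways are therefore routinely checked before they are used in activated macrophages.

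Promoter sequences were matched for Gapdh, Ppia and Hprt and are shown here; Actb and Hsp90ab1 were not matched. Each run holds the 250 bases before a RefSeq transcript start site in assembly GRCm38.p6, read 5′ to 3′ on the gene's strand. For Ppia and Hprt that site is the outer start of the gene, while for Gapdh it lies 694 bases inside the gene's span, at chr6:125165773, so that window overlaps the gene itself. Capitals mark a TATA box (TATAAA) or a GC box (GGGCGG) on either strand; a CCAAT box (CCAAT) and the kappa B consensus were searched on either strand too.
Gapdh (chr6:125165774-125166023, minus strand): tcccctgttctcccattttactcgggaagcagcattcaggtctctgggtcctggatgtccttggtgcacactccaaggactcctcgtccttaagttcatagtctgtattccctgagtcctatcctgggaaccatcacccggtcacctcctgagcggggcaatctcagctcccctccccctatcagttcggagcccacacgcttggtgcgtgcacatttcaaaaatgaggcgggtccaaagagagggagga
Ppia (chr11:6415617-6415866, plus strand): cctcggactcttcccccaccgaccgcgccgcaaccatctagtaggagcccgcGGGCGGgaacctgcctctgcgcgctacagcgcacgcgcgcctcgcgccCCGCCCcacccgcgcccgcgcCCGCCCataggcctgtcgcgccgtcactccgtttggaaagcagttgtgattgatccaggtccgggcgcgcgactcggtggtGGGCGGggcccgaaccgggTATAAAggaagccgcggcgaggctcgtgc
Hprt (chrX:52987828-52988077, plus strand): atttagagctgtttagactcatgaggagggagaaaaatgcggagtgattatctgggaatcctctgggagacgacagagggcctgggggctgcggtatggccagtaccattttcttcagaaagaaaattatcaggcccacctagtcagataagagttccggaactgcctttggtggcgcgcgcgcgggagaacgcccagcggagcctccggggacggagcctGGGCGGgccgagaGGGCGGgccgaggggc
The Ppia window held 1 TATA box, from -29 to -24 relative to the start site, and 4 GC boxes. The Hprt window held 2 GC boxes, and the Gapdh window, before that inner start site, held none of the 4 motifs; the 250 bases before the outer start of Gapdh were not analysed here. Among 32851 windows of the same length before RefSeq start sites, 12.4% held the TATA box, 33.8% the CCAAT box, 32.7% the GC box and 7.25% the kappa B consensus. These matches describe letters in the window and carry no measurement of factor binding.

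Values below are log2 intensities after quantile normalization, which gives every array the same distribution. Actb, at chr5:142903115-142907976, encodes beta-actin, the cytoskeletal protein of actin filaments. It read 15.05, 15.35 and 15.36 in DMSO and 15.77, 15.55 and 15.96 in LPS. It read 15.34, 15.47 and 15.29 in AdipoAI and 15.64, 15.54 and 15.45 in AdipoAI+LPS. Every LPS array lay above every DMSO array and every AdipoAI array, while the LPS and AdipoAI+LPS arrays overlapped. The group means were 15.25 ± 0.18 (SD, n = 3) in DMSO, 15.37 ± 0.094 in AdipoAI, 15.54 ± 0.095 in AdipoAI+LPS and 15.76 ± 0.21 in LPS, and no neighbours in that order passed the limma test. Actb rose in LPS vs. DMSO by 0.51 on the log2 scale (SE 0.14, 95% interval 0.21 to 0.81), which is 1.42-fold, with a limma adjusted p of 0.0122.

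Hprt, at chrX:52988078-53021660, encodes the purine salvage enzyme hypoxanthine guanine phosphoribosyltransferase, and it moved the other way. It read 15.66, 15.55 and 15.51 in DMSO and 15.26, 15.09 and 15.19 in LPS. It read 15.41, 15.63 and 15.38 in AdipoAI and 15.31, 15.21 and 15.49 in AdipoAI+LPS. All LPS arrays lay below all DMSO and all AdipoAI arrays, and the AdipoAI+LPS arrays reached into the range of both the LPS and the AdipoAI arrays. The group means were 15.18 ± 0.083 (SD, n = 3) in LPS, 15.34 ± 0.14 in AdipoAI+LPS, 15.47 ± 0.13 in AdipoAI and 15.57 ± 0.081 in DMSO, and again no neighbours passed the limma test. Hprt fell by 0.39 on the log2 scale in LPS vs. DMSO (SE 0.12, 95% interval -0.65 to -0.14), to 0.761 of its DMSO level, with a limma adjusted p of 0.0198.

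Gapdh, at chr6:125161852-125166467, encodes the glycolytic enzyme glyceraldehyde-3-phosphate dehydrogenase. It read 17.60, 17.57 and 17.48 in DMSO, 17.54, 17.56 and 17.50 in LPS, 17.59, 17.53 and 17.48 in AdipoAI and 17.47, 17.50 and 17.46 in AdipoAI+LPS. The ranges of the groups overlapped in each of the 5 comparisons between groups. Its log2 fold change in LPS vs. DMSO was -0.02 (95% interval -0.21 to 0.18, limma adjusted p = 0.904), and its largest difference between groups was -0.07, in AdipoAI+LPS vs. DMSO.

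Ppia, at chr11:6415867-6419817, encodes cyclophilin A, a prolyl isomerase that folds proteins and binds cyclosporin. It read 17.54, 17.47 and 17.47 in DMSO, 17.48, 17.48 and 17.47 in LPS, 17.40, 17.40 and 17.36 in AdipoAI and 17.34, 17.38 and 17.44 in AdipoAI+LPS. All 6 arrays with AdipoAI lay below all 6 without it, by a small amount. The share of all probes divided in that way was not computed. Between AdipoAI and DMSO 35.6% of all probes did not overlap, and between AdipoAI+LPS and LPS 37.7%. The log2 fold change was -0.01 in LPS vs. DMSO (95% interval -0.20 to 0.18), -0.10 in AdipoAI vs. DMSO (95% interval -0.29 to 0.09, limma adjusted p = 0.490) and -0.09 in AdipoAI+LPS vs. LPS (95% interval -0.28 to 0.10, limma adjusted p = 0.516). None of these passed the test, which takes part of its error from the spread of all probes. For Ppia that part was most of it. The SE of a difference between groups was 0.0868, and the SD of single arrays within groups was 0.0355. An SE from that SD alone would be smaller than the SD itself. The same holds for Gapdh, with 0.0885 beside 0.0431.

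Hsp90ab1, at chr17:45567778-45573261, encodes the constitutive form of the cytosolic chaperone HSP90. It read 15.15, 14.94 and 14.81 in DMSO, 15.00, 15.01 and 14.88 in LPS, 14.94, 14.88 and 14.90 in AdipoAI and 14.80, 14.99 and 14.81 in AdipoAI+LPS. The DMSO arrays alone spanned nearly the whole range of the 12 arrays. Its log2 fold change in LPS vs. DMSO was 0.0002 (95% interval -0.25 to 0.25, limma adjusted p = 0.999), and its largest difference between groups was -0.10, in AdipoAI+LPS vs. LPS.

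**Figure D1:**
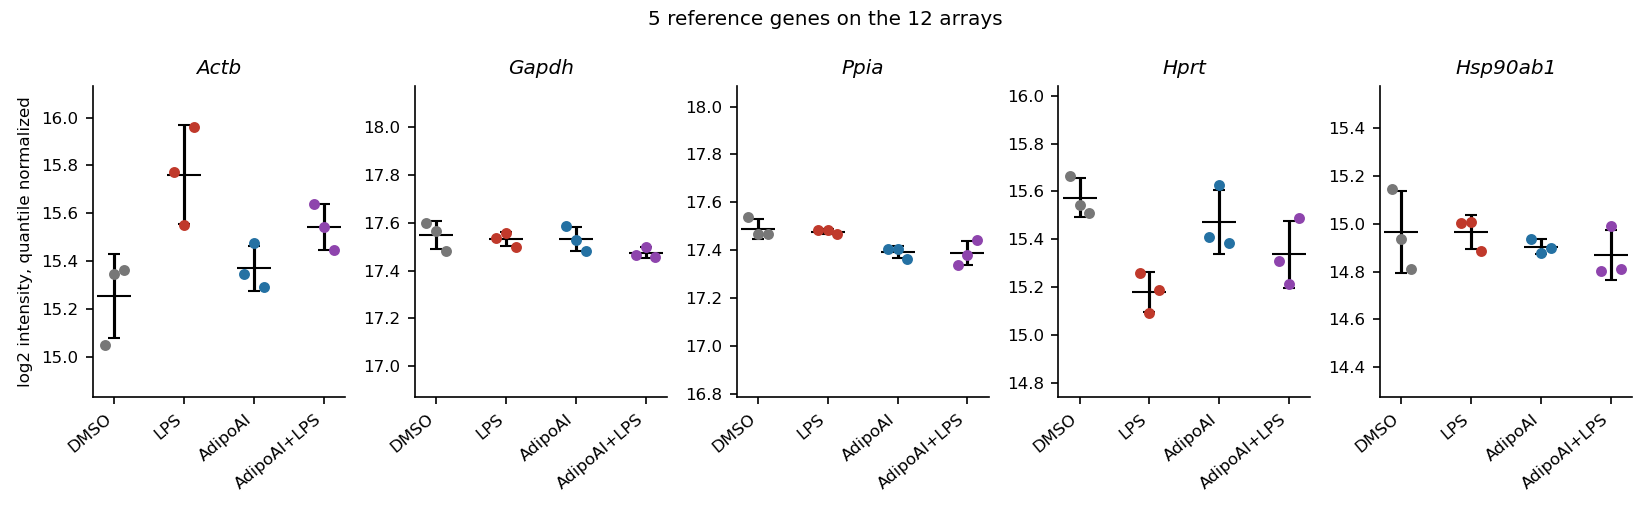
Log2 intensity (quantile normalized) of the 5 genes on the 12 arrays, by group; points are arrays, horizontal lines group means and bars SD (n = 3), and all panels span the same height on the log2 axis. Actb lies highest in LPS (15.76 ± 0.21) and Hprt lowest in LPS (15.18 ± 0.083), while the group means of Gapdh, Ppia and Hsp90ab1 span at most 0.10.

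In LPS vs. DMSO, 2 of the 5 genes passed an adjusted p under 0.05, against 38.5% of all probes tested (16.2% higher and 22.3% lower), a count near the background share. The same 2 genes had groups that did not overlap, as had 53.4% of all probes. The median log2 fold change of the 5 was -0.01, beside -0.01 over all probes. Quantile normalization gives every array the same distribution, so the median over all probes was nearly fixed in advance. The median size of a change over all probes was 0.42. The comparison lies within the first scan. On the first-scan arrays alone limma gave an adjusted p of 0.0278 for Actb and 0.0257 for Hprt. Both calls rest on few arrays: without LPS replicate 3 the adjusted p was 0.0565 for Actb and 0.0523 for Hprt. Hprt alone was also lost when DMSO replicate 1 (adjusted p = 0.0643) or LPS replicate 2 (0.0735) was left out. With each array scaled to its 75th percentile, the Hprt fold change was -0.29 (limma adjusted p = 0.0996) and that of Actb 0.59 (0.0361).

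With AdipoAI alone none of the 5 passed the test, against 14.5% of all probes called in AdipoAI vs. DMSO. The log2 fold changes ran from -0.10 for Hprt to 0.12 for Actb (95% interval -0.18 to 0.42), and the lowest limma adjusted p was 0.490, for Ppia. With AdipoAI replicates 1 and 2 alone, which share the scan of the DMSO arrays, the value was 0.16 for Actb and -0.06 for Hprt. Ppia was the 1 gene whose AdipoAI and DMSO arrays did not overlap, as was so for 35.6% of all probes.

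In AdipoAI+LPS vs. LPS the log2 fold change was -0.22 for Actb and 0.16 for Hprt, and neither passed the test. The 95% intervals were -0.52 to 0.08 for Actb and -0.10 to 0.41 for Hprt, with limma adjusted p of 0.299 and 0.383. Of the 5 genes 0 were called in AdipoAI+LPS vs. LPS, against 17.1% of all probes, and Ppia was the 1 gene without overlap, as were 37.7% of probes. That comparison lies between the scans, and with the scan as a term the values were -0.10 for Actb and 0.29 for Hprt. AdipoAI is the only group in both scans, so the scan term rests on AdipoAI replicate 3 against replicates 1 and 2. The interaction of AdipoAI with LPS, the difference between the LPS effects with and without AdipoAI, was -0.34 for Actb (95% interval -0.76 to 0.09, limma adjusted p = 0.501) and 0.26 for Hprt (95% interval -0.10 to 0.62, adjusted p = 0.553). None of the 5 passed, against 3.08% of all probes.

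In AdipoAI+LPS vs. AdipoAI the log2 fold change was 0.17 for Actb (limma adjusted p = 0.385) and -0.14 for Hprt (adjusted p = 0.425), and 0 of 5 were called, against 32.3% of all probes. With the scan as a term, and likewise on the second-scan arrays alone, these values were 0.25 and -0.05. Both rest on AdipoAI replicate 3, the only AdipoAI array of that scan. In AdipoAI+LPS vs. DMSO the log2 fold change was 0.29 for Actb (95% interval -0.01 to 0.59, limma adjusted p = 0.106) and -0.24 for Hprt (95% interval -0.49 to 0.02, adjusted p = 0.119). Of the 5 genes 0 were called there, against 47% of all probes. The arrays of Actb, Ppia and Hprt did not overlap between AdipoAI+LPS and DMSO, as was so for 56.2% of probes. With the scan as a term, which again rests on AdipoAI replicate 3, the Actb and Hprt values were 0.41 and -0.10. At an unadjusted p under 0.05 the count was 0 of 5 as well in each of the comparisons without a call. The share of all probes at that threshold was not computed, so this count has no background beside it. AdipoAI+LPS vs. AdipoAI shares no arrays with LPS vs. DMSO, only the fit and the normalization, and neither Actb nor Hprt was called in it. The other comparisons share arrays with LPS vs. DMSO and are no separate evidence of it.

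**Figure D2:**
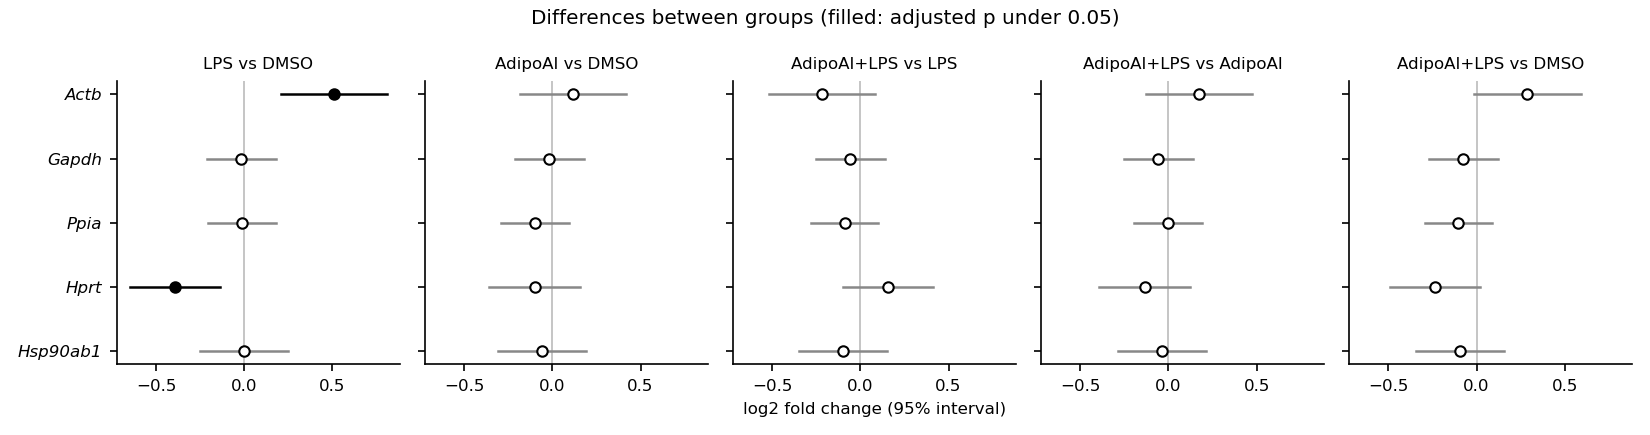
Log2 fold changes (points) of the 5 genes with 95% intervals (bars) from the limma fit of 3 arrays per group, 1 panel per comparison; filled points have an adjusted p under 0.05. The filled points are Actb (0.51) and Hprt (-0.39) in LPS vs. DMSO, and all other intervals include 0.

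Over the 4 groups together, limma's moderated F test called 1 of the 5 genes, Actb (adjusted p = 0.0366), against 52.4% of all probes. The call was lost with the scan or the replicate number as a block, with 75th percentile scaling or no normalization between arrays, and without any 1 of DMSO replicates 1 and 2, LPS replicates 1 and 3, AdipoAI replicates 1 and 3 or AdipoAI+LPS replicate 2. Hprt had an adjusted p of 0.0580 and the other 3 genes lay between 0.580 and 0.869. The same test called all 9 of the other panel genes that were tested, and 6 of those 9 were called in LPS vs. DMSO, 3 higher and 3 lower. The 5 were chosen with earlier results of these data known, so comparisons with the rest of the panel, here and below, are description only. The panel gene with the largest spread was Gk, glycerol kinase, with a log2 fold change of 1.52 in LPS vs. DMSO (limma adjusted p = 3.02e-06). Under the rule of the methods, which asks for 1.5 or more on the log2 scale in either direction and a p below 0.05 before adjustment, 0 of the 5 genes passed in LPS vs. DMSO, against 9.79% of all probes.

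The SD over the 12 arrays put the genes in the order Gapdh (0.0471), Ppia (0.0581), Hsp90ab1 (0.101), Hprt (0.182) and Actb (0.238). The median over all probes was 0.406. Gapdh had the smallest SD of the 14 panel genes tested, and Gk the largest, at 0.640. The SD within groups was 0.0431 for Gapdh, 0.0355 for Ppia, 0.107 for Hsp90ab1, 0.113 for Hprt and 0.151 for Actb. The range of the 4 group means was 3.48 times the SD within groups for Hprt, 3.36 times for Actb, 2.88 times for Ppia, 1.73 times for Gapdh and 0.903 times for Hsp90ab1. The SD between the spots of an array was lower still for each gene, with a median between 0.0283 for Hsp90ab1 and 0.0395 for Hprt.

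The order followed the signal level in part. Gapdh ranked 11 to 22 and Ppia 16 to 32 among 60694 probes on an array, where quantile normalization assigns values from a short top list shared by all arrays. Hsp90ab1 ranked 669 to 841, Hprt 443 to 694 and Actb 338 to 714. Of all probes tested, 0.0564% had an SD at or below that of Gapdh and 0.128% at or below that of Ppia. Among probes within 1 log2 unit of the gene's own mean, however, the share was 11% for Gapdh, 17.6% for Ppia, 5.46% for Hsp90ab1, 42.3% for Hprt and 65.1% for Actb. Against probes of like signal, Hsp90ab1 thus had the lowest standing of the 5 and Actb varied more than most. Before normalization the SD was 0.157 for Gapdh, 0.149 for Ppia, 0.207 for Hsp90ab1, 0.229 for Hprt and 0.261 for Actb, and scaled to the 75th percentile it was smallest for Hsp90ab1 (0.0880), beside 0.108 for Gapdh and 0.111 for Ppia. Actb had the largest SD of the 5 under each of these scales.

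**Figure D3:**
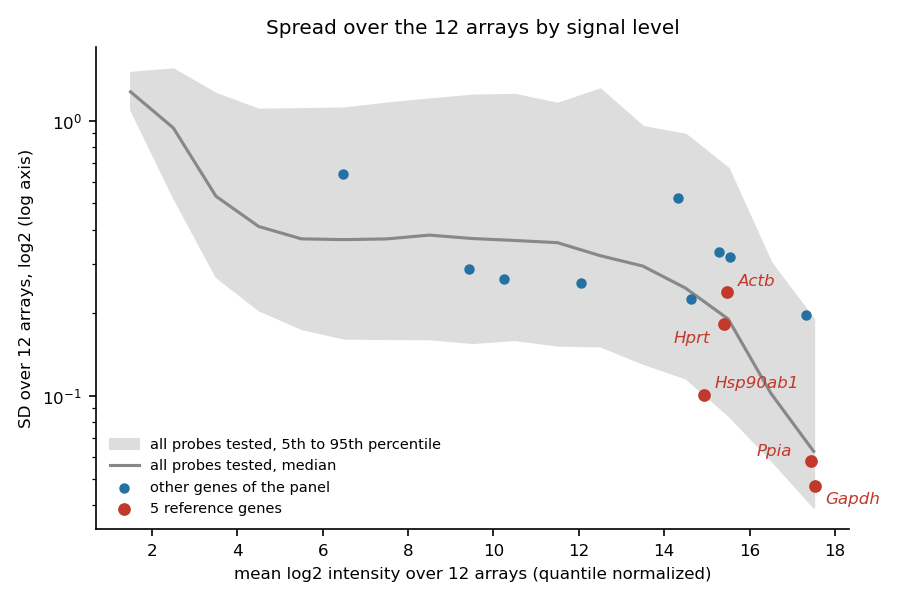
SD over the 12 arrays (log axis, log2 units) against mean log2 intensity, both quantile normalized; red points are the 5 genes, blue points the other 9 panel genes tested, the line is the median of all probes in bins of signal and the band their 5th to 95th percentile. Spread falls with signal, Gapdh and Ppia lie at the bright end, and Actb (0.238) lies above and Hsp90ab1 (0.101) well below the median at their level.

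Differences between a pair of genes on the same array need no normalization between arrays, and they are what a qRT-PCR ratio uses. The level of such a difference depends on the probes, so only its change between arrays is read. Gapdh and Ppia kept the most constant difference, with an SD over the 12 arrays of 0.0595 on the log2 scale. It ran from 0.03 to 0.09 in DMSO, 0.04 to 0.10 in LPS, 0.11 to 0.22 in AdipoAI and 0.01 to 0.13 in AdipoAI+LPS, so the AdipoAI arrays lay above all DMSO and LPS arrays. Actb and Hprt kept the least constant difference, with an SD of 0.382. Actb minus Hprt was -0.58, -0.21 and -0.13 in DMSO and 0.49, 0.46 and 0.79 in LPS. It was -0.07, -0.13 and -0.10 in AdipoAI and 0.35, 0.33 and -0.03 in AdipoAI+LPS. All LPS arrays lay above all other arrays. The other 8 pairs lay between 0.0978, for Gapdh and Hsp90ab1, and 0.282, for Actb and Hsp90ab1. The mean SD of a gene against the other 4, the M value of reference gene studies, was 0.147 for Ppia, 0.152 for Gapdh, 0.172 for Hsp90ab1, 0.241 for Hprt and 0.292 for Actb.

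Each of the 10 pairs was tested by centring every array on 1 gene of the pair and fitting all probes with limma, once for each gene as the centre. Both fits give the same difference, and the adjusted p varies with the centre because the spread of all other probes does. In LPS vs. DMSO, 2 of 10 pairs passed in both fits. These fits called 44.2% of all probes centred on Actb, 33.4% on Gapdh, 34.3% on Ppia, 41.1% on Hprt and 36.9% on Hsp90ab1. Actb rose relative to Hprt by 0.88 on the log2 scale (limma adjusted p = 0.00141 and 0.00395), and relative to Ppia by 0.53 (adjusted p = 0.0193 and 0.0461). A further 2 pairs passed in 1 of the fits. Actb relative to Gapdh was 0.52 higher (limma adjusted p = 0.0282 centred on Gapdh and 0.0524 centred on Actb), and the difference of Hprt relative to Hsp90ab1 was -0.40 (adjusted p = 0.0511 and 0.0482). Gapdh relative to Ppia differed by 0.01, with a 95% interval of -0.23 to 0.24 centred on Ppia.

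In AdipoAI+LPS vs. DMSO, 1 of 10 pairs passed in 1 of the fits, Actb relative to Hprt, with a difference of 0.52 (limma adjusted p = 0.0225 centred on Hprt and 0.0646 centred on Actb). The share of all probes called was 36.4% centred on Actb, 42% on Gapdh, 43.1% on Ppia, 45.8% on Hprt and 46.1% on Hsp90ab1. In AdipoAI vs. DMSO, AdipoAI+LPS vs. LPS, AdipoAI+LPS vs. AdipoAI and the interaction, 0 of 10 passed. Over the 5 centres, 3.91% to 11.8%, 8.84% to 18.2%, 21.4% to 29.8% and 1.34% to 2.75% of all probes were called there, in that order. The largest pair differences there were 0.21, 0.36, 0.32 and 0.57 on the log2 scale. For Hprt relative to Actb in AdipoAI+LPS vs. LPS, the difference was 0.36, with a 95% interval of -0.09 to 0.80 centred on Actb.

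**Figure D4:**
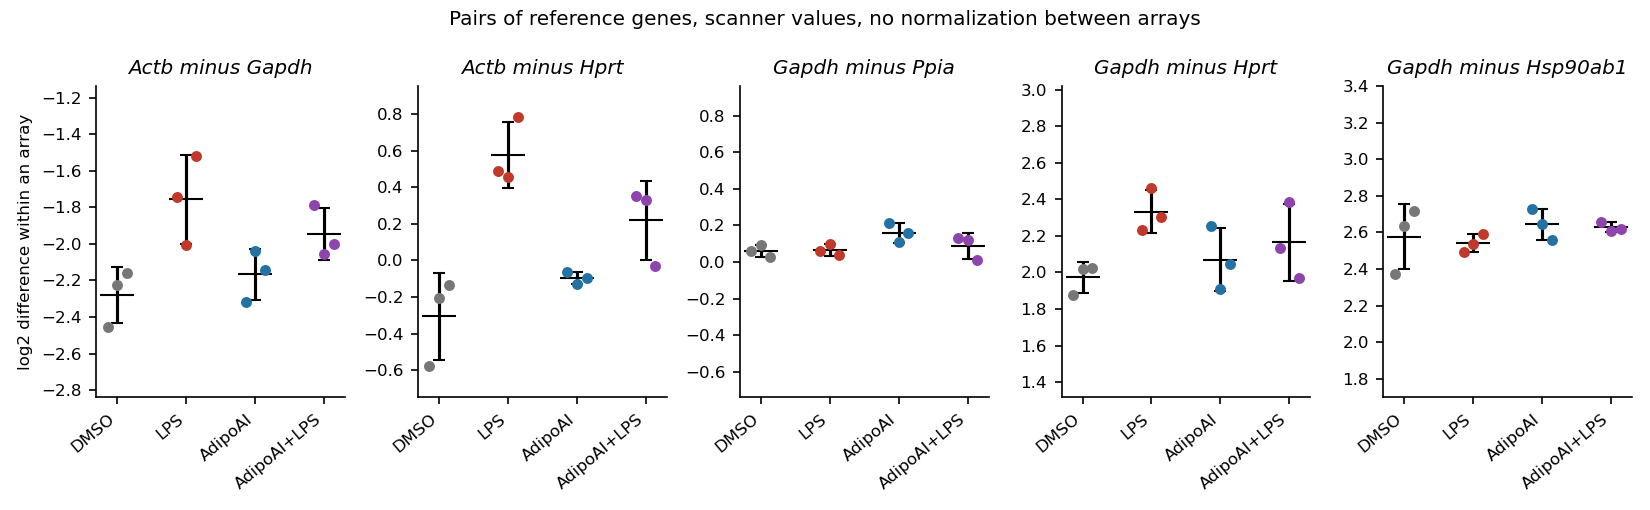
Log2 difference between 2 genes on the same array (scanner intensities, no normalization between arrays), by group; points are arrays, lines group means and bars SD (n = 3), and all panels span the same height. Actb minus Hprt is higher in all LPS arrays (0.46 to 0.79) than in all other arrays, while Gapdh minus Ppia stays between 0.01 and 0.22.

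Centring each array on 1 of the genes subtracts that gene's scanner value from all other probes of the array, in place of quantile normalization. The counts below thus mix the gene's difference between groups, its spread between arrays and the change of normalization. They are no new evidence on the genes. With quantile normalization, 5465 probes were higher and 7504 lower in LPS vs. DMSO at an adjusted p under 0.05, so that 42.1% of calls were higher. Centred on Actb, 1914 were higher and 12964 lower, or 12.9% higher, and the median log2 fold change of all probes was -0.56. Centred on Hprt, 9513 were higher and 4346 lower, or 68.6% higher, with a median of 0.32. Centring on Gapdh gave 4273 higher and 6977 lower, on Ppia 4407 and 7144, and on Hsp90ab1 4448 and 7968, with medians between -0.07 and -0.03. The mean of all 5 gave 4140 higher and 7843 lower.

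In AdipoAI+LPS vs. LPS the split was 2762 higher and 2999 lower with quantile normalization. It was 2568 and 411 centred on Actb, or 86.2% higher with a median of 0.27, and 1704 and 2883 centred on Hprt, or 37.1% higher. Centring on Gapdh, Ppia or Hsp90ab1 gave 67.3%, 69.5% and 78.5% higher. Without normalization between arrays the log2 fold changes of these genes were -0.26, -0.28 and -0.35, beside -0.06, -0.09 and -0.10 with quantile normalization. In AdipoAI vs. DMSO, 4870 probes were called with quantile normalization and 1318 centred on Actb, 574 of them higher and 744 lower, while the other 4 genes gave between 3078 and 3981.

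**Figure D5:**
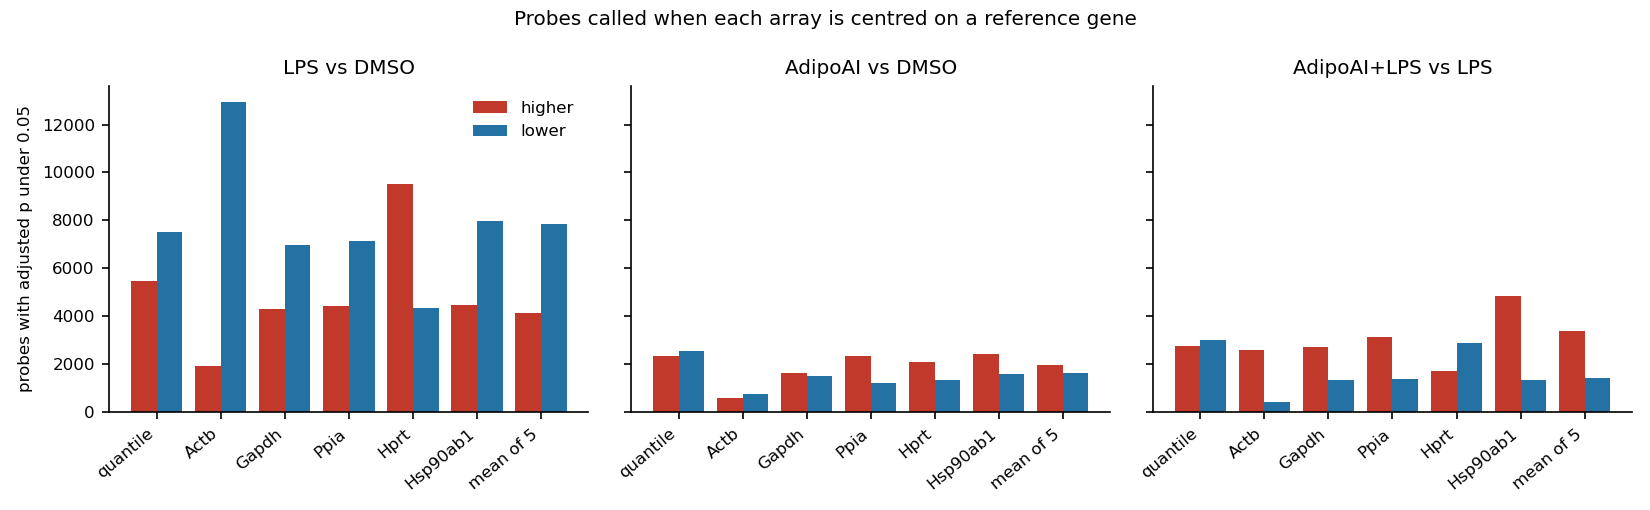
Number of probes higher (red) and lower (blue) at a limma adjusted p under 0.05 when the arrays are quantile normalized, centred on 1 reference gene or centred on the mean of the 5, in 3 comparisons. In LPS vs. DMSO most calls are lower when centred on Actb (12964) and most are higher when centred on Hprt (9513).

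Averages of several genes were computed on the quantile-normalized values. The mean of Actb and Gapdh was 0.25 higher in LPS than in DMSO on the log2 scale, 0.05 higher in AdipoAI and 0.11 higher in AdipoAI+LPS. For Gapdh, Ppia and Hsp90ab1 together, the LPS mean differed from DMSO by -0.01, the AdipoAI mean by -0.06 and the AdipoAI+LPS mean by -0.09. The mean of all 5 differed by 0.02, -0.03 and -0.04, with an SD over the 12 arrays of 0.0404. That mean included Actb and Hprt, whose LPS differences were of opposite sign, and the mean of those 2 alone was 0.06 higher in LPS.

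Across the 12 arrays, the panel gene whose quantile-normalized profile was most like that of Actb, out of 13 compared, was Gk (Pearson r = 0.838). For Hprt it was Tuba1b, an alpha-tubulin (r = 0.698), whose log2 fold change in LPS vs. DMSO was -0.31, and for Ppia it was Tbp, the TATA-binding protein (r = 0.911). Gapdh and Hsp90ab1 were most like each other (r = 0.785). The arrays share groups, scans and the normalization, and these r values are a description only.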

How the data were processed

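Members, panel and tests were chosen with earlier results of these data known. The deposited scanner files hold, per spot, an intensity on a linear scale, background-subtracted by Agilent Feature Extraction 11.0.1.1 (a version from the submitters' processing notes) and not normalized between arrays, with flags. The deposited series table holds the authors' processed log2 values, made per the methods by quantile normalization. It matched 60598 probes (r of at least 0.992 with the values used here), had column medians of 3.52 and served as an alternative.

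Left out were the array's control spots, its negative probes and 221 probes without an unflagged spot on some array. Spots of a probe were averaged as log2 values, arrays were quantile normalized, and probes well above background on at least 3 of 12 arrays were fitted as 4 groups in limma 3.58.1 (R 4.3.3), with Benjamini-Hochberg adjustment over all 33692 probes. The number of arrays limits the precision: the median SE of a log2 fold change was 0.187. The fit was tested on simulated data with differences larger than those of the 5 genes, so smaller differences were not checked. Symbols, positions and promoters came from RefSeq tables of GRCm38.p6, in which all 15 panel accessions matched, and promoters of 3 of the 5 genes. Named were the 5 genes, the panel gene most like each and those with the smallest and largest SD. Alternatives covered scaling, background correction, filter, spot summary, variance model, scan, replicate number and each array left out. Figures used Python 3.11.15 and matplotlib 3.10.9.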

Additional observations from a re-analysis of the deposited data

How the results depend on the processing

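The direction of Actb and Hprt in LPS vs. DMSO was the same under all 18 other settings. Those on the filter, the variance model, the blocks or the arrays of that comparison or scan could not alter it. They left the fold change itself unchanged. The number of the 5 genes called did vary. In LPS vs. DMSO it went from 2 to 1 with 75th percentile scaling, with no normalization between arrays, and centred on Gapdh or on Ppia. The count went to 0 centred on Hsp90ab1 (36.9% of all probes called) and to 0 at the threshold of the methods (9.79%). A gene used as the centre cannot itself be called. Centring on Ppia, Hprt or Hsp90ab1 was added after seeing the data. In AdipoAI+LPS vs. DMSO the count went from 0 to 1 with no normalization, centred on Hprt and with normexp, and to 2 with eBayes trend and robust. Over the 4 groups it went from 1 to 0 with 75th percentile scaling, with no normalization, centred on Gapdh, Ppia, Hsp90ab1 or the mean of the 5, and with the scan as a block. It went to 2 with normexp, with no filter, with the filter on all 12 arrays and with trend and robust. The cause was not tested. Counts in this section without a share of all probes beside them have no background to be read against.

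With single arrays left out, the calls in LPS vs. DMSO numbered 0 to 2, with 0 without LPS replicate 3 and 1 without DMSO replicate 1 or LPS replicate 2. It gave 0 to 2 over the 4 groups: 0 without DMSO replicate 1 or 2, LPS replicate 1 or 3, AdipoAI replicate 1 or 3 or AdipoAI+LPS replicate 2, and 2 without AdipoAI+LPS replicate 3. The Actb log2 fold change in LPS vs. DMSO stayed between 0.41 and 0.61 and that of Hprt between -0.43 and -0.35.

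The values showed no pairing by replicate number. Of 18 correlations of deviations between arrays of the same number, 1 was over 0.1 (range -0.19 to 0.11). Only 1 of 12 arrays correlated best with its own number. Whether arrays of the same number were handled together is not stated, and these values cannot show it. With the replicate block the count over the 4 groups was 0, and the count in LPS vs. DMSO was still 2 (limma adjusted p = 0.0278 for Actb and 0.0427 for Hprt).

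AdipoAI+LPS and LPS arrays lie in no common scan, so there is no value within a scan for them. With 3 arrays per group no array was tested as an outlier of its group.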
